A study of Mus musculus with 5 samples.

Results

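Histone H3 methylated at lysine 9 (H3K9) marks silent chromatin, and its writers and erasers are described here in cloned mouse embryos, which develop from an enucleated oocyte that received a donor nucleus (nuclear transfer). The 9 genes were chosen by symbol, as enzymes of H3K9 methylation, by a rule that uses no measured value though earlier results of these data were known: the writers Ehmt1, Ehmt2, Setdb1, Suv39h1 and Suv39h2, and the erasers Kdm4a, Kdm4b, Kdm4c and Kdm4d. Each of the 9 was found among the 22026 symbols of the files, and each passed the filter of a mean of at least 1 FPKM (a read density per transcript length and library total), as did 13144 genes in all. RNA was sequenced from B6D2F1 embryos at the 4-cell stage, with 1 library for each of 5 groups: H3.3 knockdown embryos, the same with added H3.3 mRNA and the same with added H3.2 mRNA, as labelled, embryos treated with luciferase, and untreated embryos. The first 3 are called the H3.3-depleted libraries and the others the controls. The H3.2 mRNA library takes its name from its title, against a treatment tag that names H3.3 mRNA. The source names put the knockdown, H3.3 mRNA and untreated libraries under NT and the H3.2 mRNA and luciferase libraries under SCNT. The donor cell, the number of embryos per library and the means of the knockdown are not given in the sources used here. With 1 library per group no difference between groups has a replicate check, and no test was run. The 3 depleted libraries differ in what was added and were not taken as replicates, and an exact permutation of 3 against 2 libraries could give no 2-sided p below 0.2. Also, fewer cells of a type and less RNA per cell cannot be told apart in such bulk samples.

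The writers add methyl groups to H3K9 and differ in where and how far. Suv39h1 and Suv39h2 are paralogs that trimethylate H3K9 in pericentromeric heterochromatin. Ehmt2 (G9a) and Ehmt1 (GLP) form a complex that mono- and dimethylates H3K9 in euchromatin, and Setdb1 trimethylates it at retrotransposons and other targets that KRAB zinc finger proteins mark through Trim28. The Kdm4 enzymes are Jumonji-domain demethylases that remove trimethyl and dimethyl groups from H3K9. H3K9 trimethylation carried over from the donor nucleus is a known barrier to reprogramming in nuclear transfer, which added Kdm4d mRNA and loss of the Suv39h enzymes are known to lower. H3.3 is the H3 variant that chaperones place in chromatin outside of DNA replication, in part in regions that carry H3K9 trimethylation.

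Upstream sequence is shown for 3 writers on which the results turn, the Suv39h pair, whose transcripts differed in the same direction, and Setdb1, which had the highest level of any of the 9 genes. The sequences come from RefSeq on the GRCm38.p6 build and run from 250 to 51 bases before the annotated start. RefSeq lists more than 1 start for Suv39h1, and the first listed is shown. Such windows were matched for 8 of the 9 genes. Capitals mark matches, on either strand, to the motifs named after the sequences, and no 2 matches overlap here.
Suv39h1, chrX:8074811-8075010, minus strand: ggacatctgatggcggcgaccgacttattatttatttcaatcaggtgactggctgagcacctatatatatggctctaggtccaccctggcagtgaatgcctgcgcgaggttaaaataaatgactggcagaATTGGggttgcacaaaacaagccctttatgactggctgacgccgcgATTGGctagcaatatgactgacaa
Suv39h2, chr2:3475037-3475236, minus strand: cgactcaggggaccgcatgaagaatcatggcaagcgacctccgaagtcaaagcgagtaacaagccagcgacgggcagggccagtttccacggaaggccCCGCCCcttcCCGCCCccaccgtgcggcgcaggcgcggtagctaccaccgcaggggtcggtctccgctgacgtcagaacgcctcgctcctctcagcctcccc
Setdb1, chr3:95357253-95357452, minus strand: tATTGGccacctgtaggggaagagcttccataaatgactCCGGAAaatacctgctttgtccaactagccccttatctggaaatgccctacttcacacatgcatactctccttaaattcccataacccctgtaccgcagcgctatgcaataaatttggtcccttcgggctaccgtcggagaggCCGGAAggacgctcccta
The windows of Suv39h1 and Setdb1 hold CCAAT, found in 28.4% of all 32851 windows of this length. That of Suv39h2 holds GGGCGG (24.6% of windows), and that of Setdb1 also CCGGAA (8.03%). The E-box CACGTG, found in 4.34% of windows, was searched as well and is in none of the 3. The TATA motif TATAAA, found in 9.14% of windows, is also in none of them. Suv39h2 has 21 CpG pairs and 67.5% G and C, against 8 pairs and 48% for Suv39h1, 8 pairs and 50.5% for Setdb1, and medians of 4 pairs and 51.5% over all windows. The other listed start of Suv39h1 has 17 pairs and 62% G and C and none of the motifs, so this contrast of the Suv39h pair rests on the start shown.

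The target of the knockdown was low where the labels place it. H3f3a and H3f3b, which encode the same H3.3 protein, summed to 664 FPKM in the knockdown, 467 FPKM in the library labelled H3.3 mRNA and 420.1 FPKM in that labelled H3.2 mRNA, against 5734 FPKM with luciferase and 5266 FPKM in untreated embryos. No gain of H3.3 transcript is thus seen in the library labelled H3.3 mRNA. Of 10 fibroblast markers 1 to 3 were above 0 in each library, with Col1a1 and Col3a1 at 0 in all 5. Fn1 was above 0 in all 5, at 16.5, 54.3 and 15.1 FPKM in the knockdown, H3.3 mRNA and H3.2 mRNA libraries. It had 28.8 FPKM with luciferase and 0.82 FPKM in untreated embryos. Col1a2 (2.48 FPKM) and Pdgfra (4.23 FPKM) were above 0 with luciferase only. Of 10 cumulus cell markers 1 to 4 were above 0, with Fshr and Amh at 0 in all 5 and Amhr2 holding 142 to 1056 FPKM. Tnfaip6, another cumulus marker, had 185 FPKM in untreated embryos, 30.8 FPKM with H3.3 mRNA and 10.4 FPKM with H3.2 mRNA. It was listed at 0 in the knockdown and with luciferase. Of 10 embryo markers, at least 9 were above 0 in each library. Among them 4 (Pou5f1, Nanog, Tdgf1 and Tbx3) were lower in all 3 depleted libraries than in both controls, against 8.83% of all genes. The summed level of 10 oocyte markers differed widely, at 1586, 1193 and 894 FPKM in the knockdown, H3.3 mRNA and H3.2 mRNA libraries, against 291 FPKM with luciferase and 5041 FPKM in untreated embryos. The sequencing depth is unknown.

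The genes fell into an abundant and a scarce set, which kept apart in each library but the knockdown. Setdb1, Ehmt2, Suv39h1, Ehmt1 and Kdm4c lay between 67.4 and 492 FPKM throughout. Suv39h2, Kdm4a, Kdm4b and Kdm4d stayed at or under 70.9 FPKM. In the knockdown Suv39h2, at 70.9 FPKM, lay just above Ehmt1, at 67.4 FPKM. There was hence 1 abundant eraser, Kdm4c, and 1 scarce writer, Suv39h2. The median range between the lowest and highest library was 2.06 on the log2(FPKM + 1) scale, against 2.88 over all genes past the filter. Suv39h1 had the narrowest range of the 9, 1.10, which 7.5% of genes matched or undercut, and Kdm4b the widest, 5.28, with a value of 0 in untreated embryos. Scarce genes have wider ranges, and for the 6532 genes that averaged 50 FPKM or more the median was 1.98, with 13.8% of genes at or below the range of Suv39h1 and 60.8% at or below that of Setdb1.

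**Figure D1:**
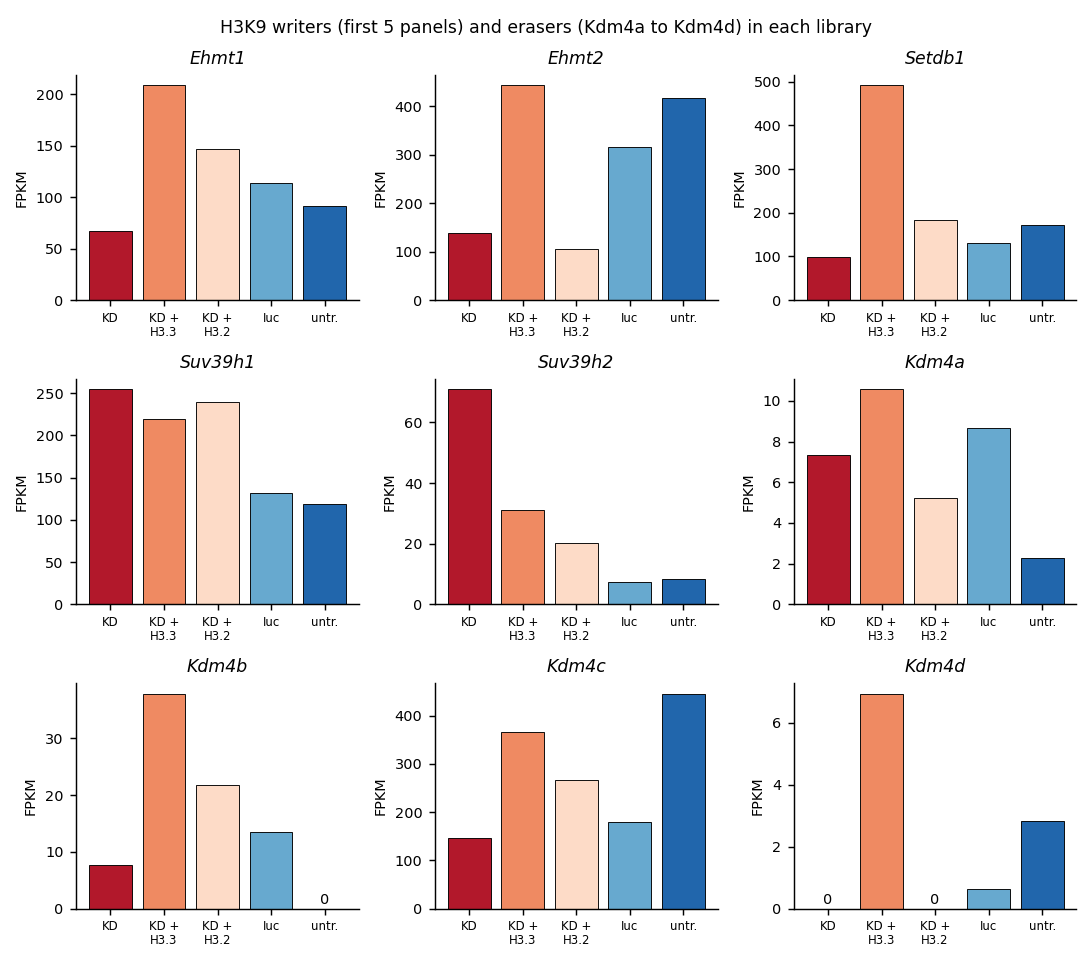
FPKM (y axis, linear from 0) of each writer and eraser in the 5 libraries: KD is the H3.3 knockdown, KD + H3.3 and KD + H3.2 the knockdown libraries labelled as given that mRNA, luc luciferase and untr. untreated. Each bar is 1 library, 0 marks a listed value of 0, and the 3 left bars of Suv39h1 and Suv39h2 stand above the 2 right ones.

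Both Suv39h genes were higher in each H3.3-depleted library than in either control, and no other gene of the 9 separated the libraries in this way. Suv39h2, the paralog known in mouse for its expression in germ cells, had 70.9 FPKM in the knockdown, 31.3 FPKM in the library labelled H3.3 mRNA and 20.2 FPKM in that labelled H3.2 mRNA, against 7.53 FPKM with luciferase and 8.5 FPKM in untreated embryos. The controls lay close together, and the lowest depleted library had 2.38 times the level of the higher control. Suv39h1 had 254, 219 and 239.7 FPKM in the knockdown, H3.3 mRNA and H3.2 mRNA libraries, against 132 FPKM with luciferase and 118 FPKM in untreated embryos. The 3 depleted libraries of Suv39h1 lay near each other, and the lowest was 1.66 times the higher control. The separation was looked for after the values were seen. Over all genes, 7.14% had the 3 depleted libraries above both controls, and 8.83% had them below both, which was the case for none of the 9.

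For the Suv39h genes the direction within each source name was fixed by the separation above, so only the size of each ratio adds to it. Among the NT libraries, the ratio to untreated embryos was 8.34 for the knockdown and 3.68 for the H3.3 mRNA library in Suv39h2, and 2.15 and 1.85 in Suv39h1. Between the SCNT libraries, the ratio of H3.2 mRNA to luciferase was 2.68 for Suv39h2 and 1.81 for Suv39h1. Suv39h2 made up 11.3% of the summed writer level in the knockdown, 2.24% where H3.3 mRNA and 2.91% where H3.2 mRNA was added, against 1.08% with luciferase and 1.05% in untreated embryos. The order of the 3 depleted libraries differed between the paralogs. Suv39h2 was 2.27 times lower with H3.3 mRNA, and 3.51 times lower with H3.2 mRNA, than in the knockdown, whereas Suv39h1 was 1.16 and 1.06 times lower. With quantile normalization the separation of Suv39h2 narrowed to 15.9 in the H3.2 mRNA library against 14.8 in untreated embryos.

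Markers moved with the same split in part. The embryo marker Pou5f1, a pluripotency factor gene, had 479, 391 and 157 FPKM in the knockdown, H3.3 mRNA and H3.2 mRNA libraries, against 849 FPKM with luciferase and 1250 FPKM in untreated embryos. It was 1 of 4 of the 10 embryo markers with this split, and the others overlapped between depleted libraries and controls. Among the others, Dppa3 (19535 FPKM) and Dppa4 (3598 FPKM) were highest in the knockdown. Of the 10 oocyte markers 1, the zona pellucida gene Zp2, was higher in each depleted library than in both controls, against 7.14% of all genes. Zp2 had 55.3, 65.2 and 81.8 FPKM, against 34.6 FPKM with luciferase and 8.82 FPKM in untreated embryos. The oocyte sums of the depleted libraries lay between those of the controls. The closeness of the controls depends on scaling: Suv39h2 was 5.34 with luciferase against 14.8 in untreated embryos with quantile normalization, and Suv39h1 154 against 88.2 with upper-quartile scaling. The part of embryo stage and oocyte transcripts in the Suv39h levels was not tested.

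The exons of Suv39h2 overlap those of Dclre1c, a DNA repair nuclease gene on the opposite strand, in the GENCODE annotation of GRCm38, and the strand setting of the counting was not among the sources used here. Dclre1c had 13.6 FPKM in the knockdown, 1.07 FPKM with H3.3 mRNA and 24.3 FPKM with H3.2 mRNA, against 27.6 FPKM with luciferase and 43.3 FPKM in untreated embryos. It was thus lower in each depleted library than in either control, opposite to Suv39h2. A division of shared reads between the overlapping genes was not tested.

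Ehmt2 was low in 2 of the depleted libraries. Its level was 138 FPKM in the knockdown and 105 FPKM in the library labelled H3.2 mRNA, against 316 FPKM with luciferase and 417 FPKM in untreated embryos. The library labelled H3.3 mRNA stood with the controls, or a little above them, at 443 FPKM. The knockdown was 2.29 times lower than luciferase and 3.02 times lower than untreated embryos, and the H3.2 mRNA library was 3 times lower than luciferase, which shares its source name. None of these reached 4-fold, whereas the H3.3 mRNA library was 4.21 times higher than the H3.2 mRNA library. Ehmt2 stayed under 4-fold there with upper-quartile scaling, at 462 against 126, and with a pseudocount of 10. Its partner Ehmt1 took another course, with 67.4 FPKM in the knockdown, 208.5 FPKM with H3.3 mRNA and 146 FPKM with H3.2 mRNA, against 114 FPKM with luciferase and 91.3 FPKM in untreated embryos. The depleted libraries of Ehmt1 lay on either side of the controls. The ratio of Ehmt2 to Ehmt1 was 2.05 in the knockdown, 2.12 in the H3.3 mRNA library and 0.719 in the H3.2 mRNA library, against 2.78 with luciferase and 4.56 in untreated embryos. The H3.2 mRNA library was the only one in which Ehmt1 was the higher of the pair.

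Setdb1 stood out in the library labelled H3.3 mRNA. It had 492 FPKM there, 183 FPKM with H3.2 mRNA and 98.6 FPKM in the knockdown, against 129.8 FPKM with luciferase and 172 FPKM in untreated embryos. The other 4 libraries were within 2-fold of each other, with the knockdown lowest. The H3.3 mRNA library was 4.99 times higher than the knockdown and 2.87 times higher than untreated embryos, which share its source name. With the trend of the difference on transcript length removed, the difference of Setdb1 from the knockdown was 1.6 on the log2 scale in place of 2.31, which is under 4-fold. Setdb1 overlaps exons of Cers2 on the opposite strand (Lass2 in the files). Cers2 was abundant, with 1551 FPKM in the H3.3 mRNA library against 1024 FPKM in the knockdown, and its highest level, 2437 FPKM, with luciferase. A division of shared reads between Setdb1 and Cers2 was not tested.

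Kdm4c carried nearly all of the measured eraser transcript. Its level was 145 FPKM in the knockdown, 365 FPKM with H3.3 mRNA and 266 FPKM with H3.2 mRNA, against 180.1 FPKM with luciferase and 445 FPKM in untreated embryos. As deposited, the controls lay further apart, by 2.47 times, than the knockdown lay from luciferase, by 1.24 times. With upper-quartile scaling the log2 differences were near equal, at -0.658 for luciferase against untreated embryos and -0.653 for the knockdown against luciferase. With quantile normalization the contrast held, at 188 with luciferase against 378 in untreated embryos and 153 in the knockdown. Kdm4c made up 90.7% of the eraser sum in the knockdown, 86.8% in the H3.3 mRNA library and 90.8% in the H3.2 mRNA library, against 88.8% with luciferase and 98.9% in untreated embryos. The untreated library had the most Kdm4c as deposited and the highest oocyte marker sum. Luciferase was the lower of the controls in both. In the knockdown Kdm4c was lowest, while the oocyte marker sum was 1586 FPKM, against 291 FPKM with luciferase. Kdm4c was highest with H3.3 mRNA under both scalings: 381 against 332 in untreated embryos with upper-quartile scaling, and 381 against 378 with quantile normalization. The part of oocyte transcripts in the Kdm4c levels was not tested.

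The other 3 erasers were scarce. Kdm4b, a paralog that acts on the same marks, had 7.62 FPKM in the knockdown, 37.9 FPKM with H3.3 mRNA and 21.9 FPKM with H3.2 mRNA, against 13.5 FPKM with luciferase and a listed 0 in untreated embryos. Kdm4a had 7.32, 10.6 and 5.22 FPKM in the knockdown, H3.3 mRNA and H3.2 mRNA libraries, against 8.68 FPKM with luciferase and 2.28 FPKM in untreated embryos. Kdm4d had 6.93 FPKM with H3.3 mRNA and was listed at 0 in the other 2 depleted libraries, against 0.63 FPKM with luciferase and 2.82 FPKM in untreated embryos. Kdm4d, the enzyme used as an added mRNA in nuclear transfer work, was thus the least abundant of the 9 in every library but the untreated one. For these 3 the depleted libraries overlapped the controls, and each was highest with H3.3 mRNA as deposited. With quantile normalization Kdm4a was highest in the knockdown, at 9.38, and Kdm4d in untreated embryos, at 7.62. Because many genes are listed at 0 in 1 library and not in another, a 0 here is not evidence of absence.

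**Figure D2:**
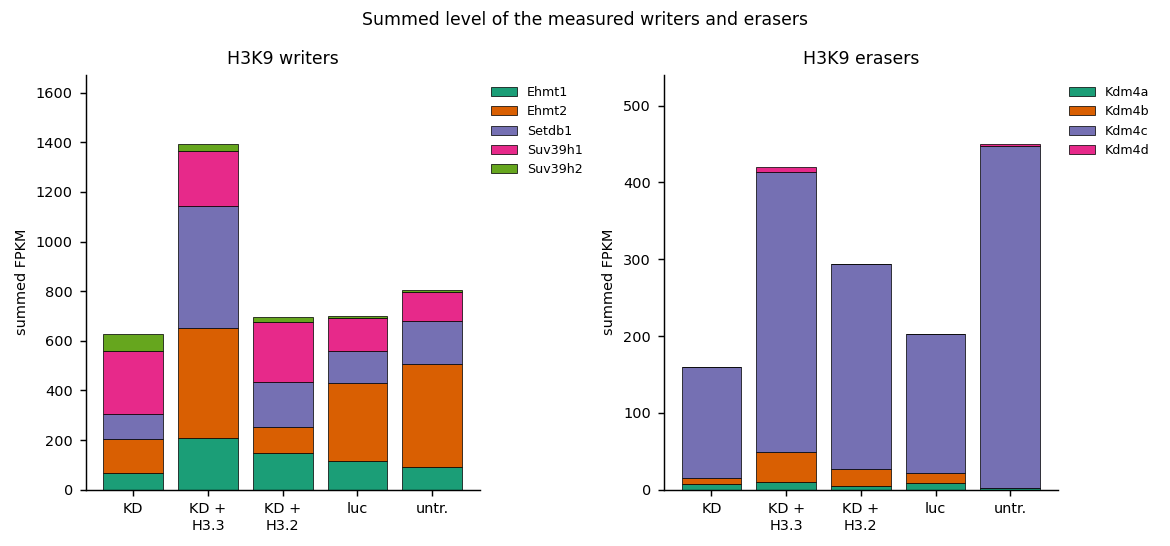
Summed FPKM (y axis) of the 5 writers and the 4 erasers in each library, stacked by gene, with libraries named as in the plot of single genes. The writer sum was highest with H3.3 mRNA, and Kdm4c fills most of each eraser bar.

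The sums over each class were set side by side, since FPKM is per transcript length. Writers summed to 629, 1394 and 695 FPKM in the knockdown, H3.3 mRNA and H3.2 mRNA libraries, against 699 FPKM with luciferase and 806 FPKM in untreated embryos. The erasers summed to 160.2, 420.5 and 293 FPKM in the knockdown, H3.3 mRNA and H3.2 mRNA libraries, against 203 FPKM with luciferase and 450.4 FPKM in untreated embryos. The ratio of writers to erasers was 3.93, 3.32 and 2.37 in the 3 depleted libraries, against 3.45 with luciferase and 1.79 in untreated embryos. The controls thus span most of the range of this ratio. The writers changed places within a sum that, as deposited and outside the H3.3 mRNA library, kept between 629 and 806 FPKM. This range depends on scaling. Upper-quartile scaling multiplies every level by 1.167 with luciferase and by 0.746 in untreated embryos, which reverses the order of their writer sums. The class sums were computed only as deposited. Suv39h1 was the leading writer in the knockdown (40.4% of the sum) and with H3.2 mRNA (34.5%), and Setdb1 in the H3.3 mRNA library (35.3%), against Ehmt2 with luciferase (45.2%) and in untreated embryos (51.7%).

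The knockdown was compared with each control by the difference of log2(FPKM + 1), with a call at 4-fold. Against luciferase, 1 of 9 genes was called higher, Suv39h2, with a difference of 3.07, where 9.74% of all genes were called higher. None was called lower, where 18.9% of all genes were. Against untreated embryos, 2 of 9 were called higher, Suv39h2 by 2.92 and Kdm4b, which is listed at 0 in untreated embryos, with a background of 16.8%, and none lower, with a background of 15.6%. Suv39h2 was called higher against each control, as were 4.98% of all genes, and none of the 9 was called lower against each, as were 6.35%. The median difference of the 9 genes was -0.39 against luciferase and -0.43 against untreated embryos, where all genes had medians of -0.12 and 0. In the comparison with luciferase 7 of 9 genes were lower in the knockdown. With the length trend removed 4 were lower and the median was 0.13, so that direction depends on the treatment of length. The 9 genes have long transcripts, with a median of 4327 bases against 3183 over all genes. The controls themselves differed by 4-fold at 1 of the 9, Kdm4b, which was called higher with luciferase (background 23.5%) and is listed at 0 in untreated embryos, and at none in the other direction (13.4%).

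**Figure D3:**
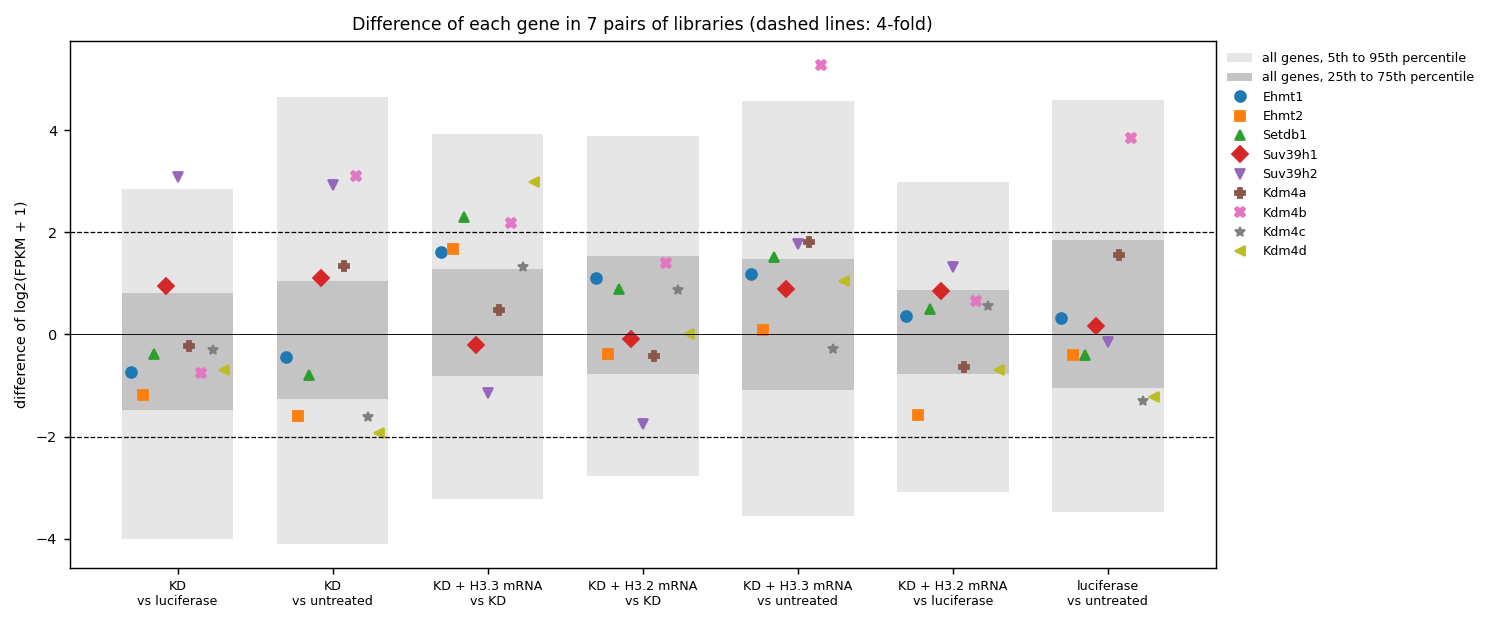
Difference of log2(FPKM + 1) (y axis) of the 9 genes in 7 pairs of libraries, named on the x axis, with KD for the H3.3 knockdown. Each symbol is 1 gene, and dashed lines mark 4-fold. Shading covers the central part of the 13144 genes past the filter, with both tails left out. Suv39h2 lies above 2 in both comparisons of the knockdown with a control.

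The library labelled H3.3 mRNA had more of most of the 9 transcripts than the knockdown. Setdb1 and Kdm4b were called higher, by 2.31 and 2.17, as was Kdm4d, listed at 0 in the knockdown, so 3 of 9 against 16.4% of all genes, and none was called lower (10.1%). With the length trend removed Kdm4d alone was called, with Setdb1 at 1.6 and Kdm4b at 1.61, and with a pseudocount of 10 Setdb1 alone was called. At a fold of 2 the count was 6 of 9, with Ehmt1, Ehmt2 and Kdm4c added, against 29.4% of all genes, and 1 of 9, Suv39h2, was lower (21.7%). The median difference was 1.61, against 0 for all genes, and 0.87 with the length trend removed, with 6 of 9 genes then higher in place of 7. Of the 9 genes 6 were highest in this library: Ehmt1, Ehmt2, Setdb1, Kdm4a, Kdm4b and Kdm4d. The share of all genes highest there was 16.7%. This count was made after the values were seen, and it was 7 with upper-quartile scaling and 5 with quantile normalization. Against untreated embryos, 1 gene was called higher with H3.3 mRNA, Kdm4b, from a listed 0 (20.6% of all genes), none lower (13.8%), and the median difference was 1.18.

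By 4-fold calls as deposited, the library labelled H3.2 mRNA lay nearer to the knockdown than the library labelled H3.3 mRNA did. By the same calls it lay no nearer to the knockdown than to luciferase. None of the 9 was called higher (background 19.5%) or lower (9.11%) than in the knockdown, and the median difference was 0, against 0.15 for all genes. That 0 is the value of Kdm4d, listed at 0 in both libraries, with 4 genes higher and 4 lower. Over the genes above 0 in both libraries the median was 0.39. The widest differences were Suv39h2 at -1.76 and Kdm4b at 1.41. Against luciferase, the only pair within SCNT, none was called in either direction, with backgrounds of 10.4% higher and 9.84% lower. The widest differences there were Ehmt2 at -1.58 and Suv39h2 at 1.31. Set directly against the H3.2 mRNA library, the H3.3 mRNA library was called higher at Ehmt2, by 2.06, and at Kdm4d, listed at 0 with H3.2 mRNA, so at 2 of 9 genes (background 8.38%), and lower at none (12.6%). The Ehmt2 call was lost with upper-quartile scaling, and both calls with a pseudocount of 10. Each comparison of a library with the knockdown shares that library with the comparisons above.

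Other genes of the pathway were taken from 5 lists of 51 genes, of which 48 passed the filter. In the knockdown against luciferase 3 were called higher and 7 lower, or 6.25% and 14.6%, with a median of -0.80, where 9.74% and 18.9% of all genes were called. Against untreated embryos 4 were higher and 3 lower, or 8.33% and 6.25%, with a median of -0.21 and backgrounds of 16.8% and 15.6%. With H3.3 mRNA against the knockdown 9 were higher and 1 lower, or 18.8% and 2.08%, with a median of 1.02 and backgrounds of 16.4% and 10.1%. With H3.2 mRNA against the knockdown 6 were higher and 1 lower, or 12.5% and 2.08%, with a median of 0.78 and backgrounds of 19.5% and 9.11%. The shares called higher were thus near or below those of all genes, and the shares called lower below them. All genes had medians of 0 and 0.15 in the last 2 comparisons, and the 9 genes 1.61 and 0. The median of 0 is the value of Kdm4d, listed at 0 in both libraries, and it was 0.39 without such genes.

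The other writers and erasers included some with wide ranges. Prdm9, a meiotic methyltransferase best known for H3K4 and H3K36, had 43.4, 10.7 and 17.1 FPKM in the knockdown, H3.3 mRNA and H3.2 mRNA libraries, against 2.64 FPKM with luciferase and 98.1 FPKM in untreated embryos. Setdb2, a relative of Setdb1, had 2.19, 23.0 and 9.98 FPKM in the same libraries, against 11.9 FPKM with luciferase and 54.9 FPKM in untreated embryos. Kdm1b, an amine-oxidase demethylase of oocytes, had 5.33, 23.8 and 21.4 FPKM, against 21.6 FPKM with luciferase and 121 FPKM in untreated embryos. All 3 were highest in the untreated library, which had the most oocyte marker transcript. Prdm9 was lowest with luciferase, which had the least of it (291 FPKM). Setdb2 and Kdm1b were lowest in the knockdown, which had more of it (1586 FPKM). The part of oocyte transcripts in these levels was not tested. Phf8, a demethylase of H3K9me1 and H3K9me2, had 43.7, 49.3 and 44.2 FPKM, against 29 FPKM with luciferase and 5.61 FPKM in untreated embryos, so it was higher in each depleted library than in either control. Prdm2, Prdm16, Jmjd1c and Phf2 were the other genes of widest range in these 2 lists, all at or under 45.2 FPKM.

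Several cofactors, readers and chaperones had less transcript in the knockdown than with luciferase. The chromodomain corepressor gene Cdyl had 3.6 FPKM in the knockdown, 46 FPKM with H3.3 mRNA and 62.6 FPKM with H3.2 mRNA, against 37.9 FPKM with luciferase and 5.39 FPKM in untreated embryos. Lbr, the lamin B receptor, which binds HP1, had 89.5, 174 and 269 FPKM, against 389 FPKM with luciferase and 35.2 FPKM in untreated embryos. Atrx, the remodeller that works with Daxx to place H3.3 in heterochromatin, had 2.76, 43.8 and 26.3 FPKM, against 41.9 FPKM with luciferase and 2.44 FPKM in untreated embryos. For these 3 genes the knockdown was on the side of the untreated library, and luciferase on that of the add-back libraries. Daxx had 66.5, 199 and 131 FPKM, against 81 FPKM with luciferase and 306 FPKM in untreated embryos. Rlf (5.16 to 111 FPKM), Zfp644 (2.69 to 36.4 FPKM), Cabin1 (43.6 to 205 FPKM) and Zfp462 (0 to 7.13 FPKM) were each highest with H3.3 mRNA. Zfp57, a KRAB zinc finger gene of imprinted loci, ranged from 5.79 FPKM in the knockdown to 84.6 FPKM with H3.2 mRNA. Cdyl2, Uhrf2 and Asf1a were the remaining genes of widest range. Among the readers, Cbx3 and Cbx5, which encode HP1 proteins, were lower in the 3 depleted libraries than in both controls, and among the cofactors and chaperones Wiz, Zfp644, Chaf1a and Hira were higher in all 3 and Smarcad1 lower. With Phf8 this makes 5 of the 48 genes higher (10.4%) and 3 lower (6.25%), near the 7.14% and 8.83% of all genes.

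**Figure D4:**
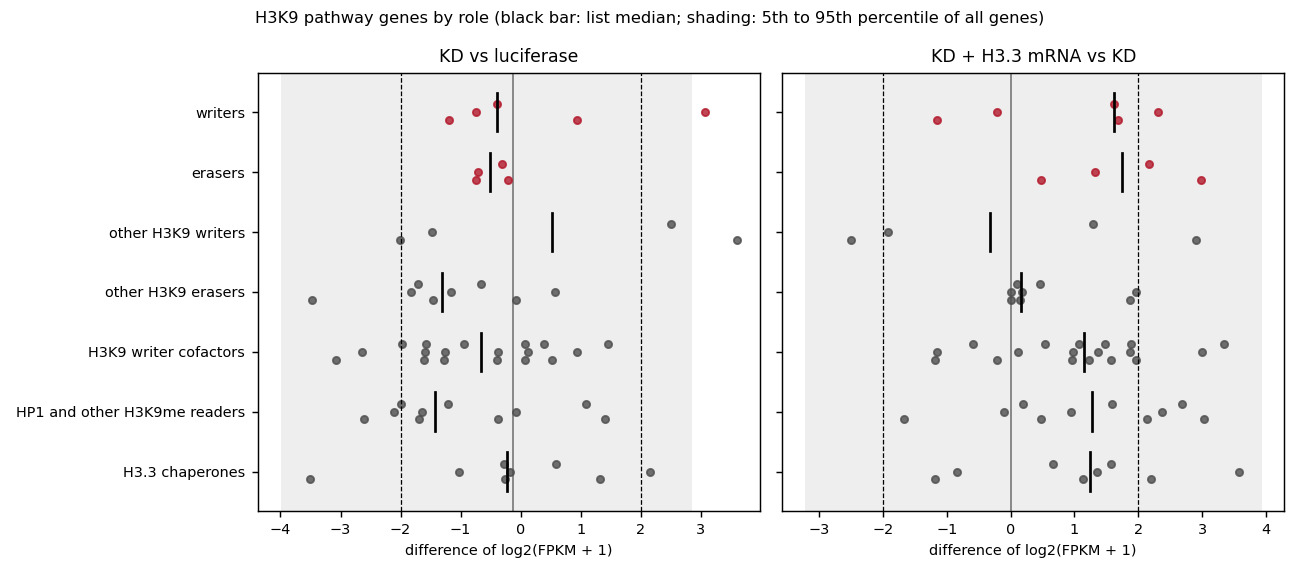
Difference of log2(FPKM + 1) (x axis) of the 9 genes (red) and of the further pathway genes (grey) by role, for the knockdown (KD) against luciferase and for the library labelled H3.3 mRNA against the knockdown. Black bars are list medians, dashed lines mark 4-fold, and the writer and eraser medians lie at -0.39 and -0.51 in the left panel and at 1.61 and 1.75 in the right one.

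Genes of most similar pattern were sought for the 7 of the 9 genes above 0 in every library, by the root mean square difference of log2(FPKM + 1), each gene centred on its mean over the 5 libraries. Clone and gene-model names were left out of the search. The closest of 11792 genes to Suv39h1 was Sap130, a subunit gene of the Sin3 corepressor complex, with a difference of 0.07. It had 103 FPKM in the knockdown, 77.1 FPKM with H3.3 mRNA and 88.7 FPKM with H3.2 mRNA, against 52.1 FPKM with luciferase and 43.3 FPKM in untreated embryos. The closest to Suv39h2 was Arrdc1, an arrestin-domain gene, with a difference of 0.16, and the closest to Ehmt2 was Tead4, a transcription factor gene of the trophectoderm, with 0.12. Fyttd1 was closest to Ehmt1 (0.11), Celf5 to Setdb1 (0.11), Snx1 to Kdm4a (0.06) and Slc30a6 to Kdm4c (0.06). Celf5 stayed at or under 4.12 FPKM and was listed at 0 in the knockdown. With 5 libraries a close match among so many genes is a description of these values.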

How the data were processed

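Total RNA of 5 libraries, 1 per group, was sequenced with TruSeq kits as 51-base single reads, per the labels' protocols. The deposited files hold FPKM per gene symbol, which the authors made with TopHat and Cufflinks on mm9, per the submitters' processing notes (versions not given). FPKM is relative to the library total, so a shift in abundant transcripts moves all others, and overlapping or near-identical genes can trade reads. No read count could be recovered: among genes under 20 FPKM in both libraries of a pair, at most 3.92% fell in 1 bin of 0.1 log2 units between libraries, over 10 pairs.

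Differences of log2(FPKM + 1), a scale that shrinks changes of low genes, were called at 4-fold over the 13144 genes past the filter, and the share of all genes called is the background. There was no test. The 9 genes and the lists were chosen with earlier results of these data known. Named genes are the 9, up to 4 genes of widest range in each pathway list, the closest pattern for each of the 9, and H3f3a and H3f3b. Dclre1c, Cers2, Cbx3, Cbx5, Wiz, Chaf1a, Hira, Smarcad1, Pou5f1, Nanog, Tdgf1, Tbx3, Dppa3, Dppa4 and Zp2 were added after their values were seen. So were the fibroblast and cumulus cell markers that are named. Alternatives were pseudocounts of 0.1 and 10, no filter or one at a mean of 5 FPKM, upper-quartile and quantile scaling, genes above 0 in both libraries, and removal of a lowess trend on the longest GENCODE vM21 transcript (known for 98.9% of genes). Python 3.11.15, pandas 2.3.3, numpy 2.4.6 and statsmodels 0.14.6 were used. The fold rule was run on simulated data with changes well above 4-fold and little noise. That checks the computation and does not show how the rule behaves between these single libraries.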

Additional observations from a re-analysis of the deposited data

Results flagged for a closer look

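Kdm4a and Kdm4c differed from their control in opposite directions under the 2 source names. For Kdm4a the NT libraries were higher than untreated embryos, by 1.34 in the knockdown and 1.82 with H3.3 mRNA on the log2(FPKM + 1) scale, and the SCNT library with H3.2 mRNA was lower than luciferase, at -0.64. For Kdm4c the NT libraries were lower than untreated embryos, at -1.61 in the knockdown and -0.29 with H3.3 mRNA, and the SCNT library with H3.2 mRNA was higher than luciferase, by 0.56. The difference between source names was not tested, and it cannot be told apart from the treatments, which differ between them, or from the distance between the controls. For Kdm4c it also depends on scaling, since the H3.3 mRNA library was above untreated embryos with upper-quartile scaling, at 381 against 332, and with quantile normalization, at 381 against 378. All Kdm4a levels were at or under 10.6 FPKM.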

How the results depend on the processing

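Of the 559 recomputed differences of single genes, 537 kept their side of the 4-fold threshold and none that was called changed sign, 10 calls were lost and 12 gained. Of the 537, 72 without a filter, 64 with the filter at a mean of 5 FPKM and 63 over genes above 0 could not change. Those settings choose genes and leave each difference as it was. Suv39h2 was called higher in the knockdown than each control under both other pseudocounts, both scalings and with the length trend removed. These are the alternatives that can change its value. The separation of both Suv39h genes by depletion, 2 of 9 genes, held under both scalings. Counts of the 9 genes at 4-fold moved as follows, mostly through Kdm4b and Kdm4d, which are listed at 0 in some libraries. With a pseudocount of 0.1, lower counts became 1 for the knockdown against luciferase, 1 for the knockdown against untreated, 1 for H3.2 mRNA against luciferase and 1 for luciferase against untreated, and H3.3 mRNA against untreated had 2 higher. With a pseudocount of 10, the higher counts were 1 for the knockdown against untreated, 1 for H3.3 mRNA against the knockdown, 0 for luciferase against untreated and 0 for H3.3 mRNA against H3.2 mRNA. Over genes above 0 in both libraries, they were 1 for the knockdown against untreated, 0 for luciferase against untreated, 0 for H3.3 mRNA against untreated and 1 for H3.3 mRNA against H3.2 mRNA. H3.3 mRNA against the knockdown had 2 higher there, with quantile normalization and with a filter at a mean of 5 FPKM. Quantile normalization gave 1 lower for the knockdown against untreated, H3.2 mRNA against the knockdown and luciferase against untreated. Upper-quartile scaling gave 2 higher for luciferase against untreated, 3 for H3.3 mRNA against untreated and 1 for H3.3 mRNA against H3.2 mRNA (without Ehmt2). It moved the median of all genes from 0.02 to 0.64 for luciferase against untreated and from -0.12 to -0.45 for the knockdown against luciferase. With the length trend removed, H3.3 mRNA against the knockdown had 1 higher (Kdm4d) and H3.2 mRNA against the knockdown 1 lower (Suv39h2). With a filter at a mean of 5 FPKM, which drops Kdm4d, H3.3 mRNA against H3.2 mRNA had 1 higher. Other causes were not tested. No paired analysis was possible because each group has 1 library. Precision is limited by the lack of replicates and of read counts, most for Kdm4a, Kdm4b and Kdm4d.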
